A study of Mus musculus with 12 samples.

Results

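The genotype by ligation interaction asks whether loss of fibulin-5 alters how a carotid artery responds to disturbed blood flow. It was computed for each gene as the ligation effect in the knockout (KO), left minus right common carotid artery (LCA minus RCA), minus the same effect in the wild type (WT). All 12 of the 12 arrays of the series enter it, since each of the 4 groups named in the sample titles is a term of the contrast. A value above 0 means that the gene's level in the ligated artery, relative to the untouched one, was higher in KO than in WT.

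The mice were labelled C57Bl/6J, and the 4 groups of 3 arrays were titled WildType RCA, WildType LCA, FibVKO RCA and FibVKO LCA, where FibV is fibulin-5. The titles call the animals knockouts, while the design text of the series speaks of knockdown. In every mouse the LCA was partially ligated, which lowers flow and makes it disturbed, and the RCA was left untouched, so no group came from unoperated animals. Arteries were taken 1 day after surgery, and total RNA was hybridised to one-colour Illumina arrays. The age and sex of the mice, the deleted part of the gene and the tissue layers taken are not given in the labels. Whether a separate mouse gave each of a group's 3 arrays is not stated either, and the p-values then cover only the spread between these samples, which may be technical. Each array measured RNA from many cells together, so fewer cells of a type and less RNA per cell cannot be told apart.

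As background, fibulin-5 is a secreted extracellular matrix protein that binds elastin and cell surface integrins and helps to assemble elastic fibres, which give large arteries their recoil. Endothelial cells sense the drag of flowing blood. Steady laminar flow keeps the transcription factors Klf2 and Klf4 and the nitric oxide synthase Nos3 at high levels, while low or oscillating flow lowers them and favours adhesion molecules for leukocytes. Partial carotid ligation is widely used to bring on that switch in the living mouse.

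Fbln5 itself could not check the knockout. Its single probe had intensities of 80.6 to 97.4, below the background guide on all 12 arrays (the 95th percentile of the olfactory and related receptor probes on the same array), and reached the array median on 1 array, so it was left out of the genes tested. The group means were 86.8 ± 1.68 (SD, n = 3) and 87.3 ± 0.77 for the untouched and ligated arteries of WT, and 89.0 ± 8.36 and 84.7 ± 3.42 for those of KO. A signal at background in every group says nothing about the genotype of an artery, and the position of the probe relative to the deleted part is not given in the labels.

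For no gene did the difference between the genotypes' responses to ligation pass after adjustment for multiple testing: 0 of 15395 genes (0%) passed an adjusted p of 0.05 for the interaction in limma, and the smallest adjusted p was 0.905. Without adjustment, 546 genes (3.55%) had an interaction p under 0.05, of which 343 (2.23%) lay above 0 and 203 (1.32%) below 0. When the interaction p-values were divided into 20 equal bins, this lowest bin was also the emptiest, against a mean of 769.8 genes per bin. Neither ligation effect passed the adjusted threshold for any gene either (0% in WT and 0% in KO), with smallest adjusted p-values of 0.189 in WT and 0.707 in KO. Unadjusted, 1068 genes (6.94%) in WT and 1066 genes (6.92%) in KO had a ligation p under 0.05. The median standard error of the interaction was 0.147 on the log2 scale, so that differences between genotypes of modest size were not detectable with 3 arrays a group.

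**Figure D1:**
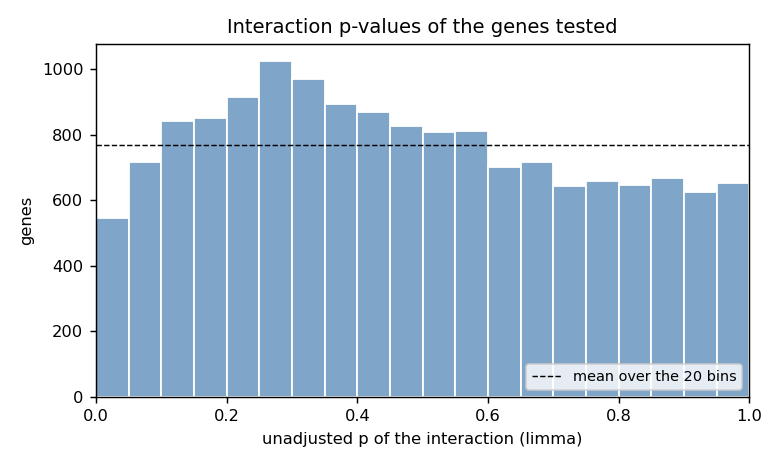
The number of genes (vertical axis) in each of 20 bins of the unadjusted limma interaction p (horizontal axis), for the 15395 genes tested, with the mean per bin as a dashed line. The lowest bin holds 546 genes, the fewest of any bin, and the fullest holds 1026.

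Leaving out 1 array at a time, between 0 and 3 genes passed for the interaction. Without WT LCA replicate 3 they were Cyb561d1, Sh3glb2 and Tgif1, each with higher values on the other WT LCA arrays than on any other array. Tgif1, a repressor of TGF-beta signalling, had 99.6, 92.4 and 89.7 in WT RCA against 239, 337 and 86.7 in WT LCA, and 105, 105 and 99.2 in KO RCA against 88.5, 92.7 and 103 in KO LCA, and its interaction was -1.72 without that array (limma adjusted p 0.0309) against -1.15 ± 0.54 with it. Without WT LCA replicate 2 the gene was Nkrf, without WT RCA replicate 1 it was Mrps15, and without WT RCA replicate 2 the genes were Crkl and Ythdf3. These 7 were named after their values were seen.

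Since no gene passed with all arrays, genes are described in 4 classes set by unadjusted limma p-values at 0.05, and these classes are descriptions, not calls. A ligation response is termed kept where WT and KO both had p under 0.05 with the same sign and the interaction did not. It is termed lost where WT and the interaction had p under 0.05 and KO did not, gained where KO and the interaction did and WT did not, and opposed where both genotypes had p under 0.05 with opposite signs. The classes held 81 kept genes (0.526%), 227 lost genes (1.47%), 191 gained genes (1.24%) and 15 opposed genes (0.0974%). Choosing genes by such thresholds makes the effect that was selected look larger than it is. The median absolute ligation effect was 0.26 in WT and 0.25 in KO among the kept genes, 0.52 and 0.11 among the lost genes, and 0.05 and 0.24 among the gained genes. A further 113 genes had an interaction p under 0.05 with neither ligation p under it.

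**Figure D2:**
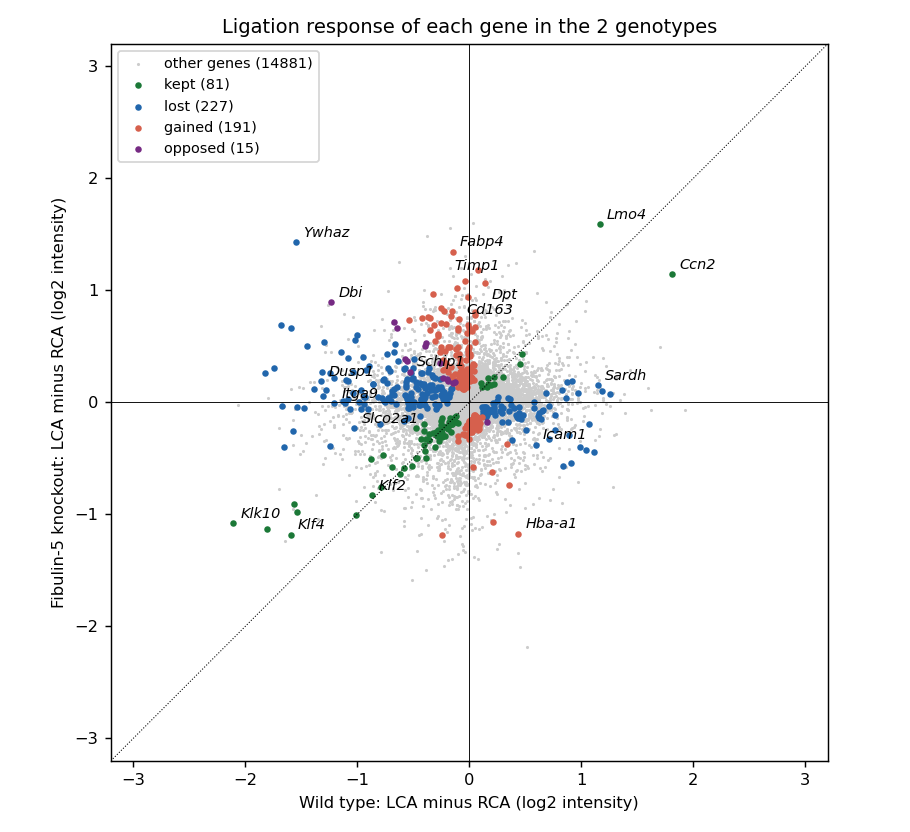
Each point is 1 gene, with its ligation effect in WT on the horizontal axis and in KO on the vertical axis, both as log2 intensity of LCA minus RCA, and the dotted diagonal marks equal effects. Klf2 lies close to the diagonal below 0, while Sardh lies near the horizontal line and Fabp4 near the vertical one.

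One array stood apart from the others. WT LCA replicate 3 had a median correlation of 0.691 with the other arrays, where those ranged from 0.781 to 0.865. Only 15.9% of genes on it exceeded the background guide, against 28.5% to 48.2% on the others. It held the lowest value of all 12 arrays for 24.5% of the genes. Without it, 668 genes (4.34%) had an unadjusted interaction p under 0.05. Of these, 303 (1.97%) lay above 0 and 365 below 0, so over all genes tested the more frequent direction turned. Among the 6371 genes above background on all 3 arrays of a group it did not. In the same fits, 289 of them lay above 0 and 76 below with all arrays, and 220 and 204 without this one. Of the genes in each class, 41 of the 81 kept, 115 of the 227 lost, 115 of the 191 gained and 6 of the 15 opposed stayed in it without that array. Other arrays moved the size of the classes too. There were 489 lost, 170 kept and 23 opposed genes without WT LCA replicate 1, and 369 lost genes without WT LCA replicate 2. Without WT RCA replicate 2 there were 148 kept and 105 gained genes. The kept class held 50 genes without WT RCA replicate 1, 52 without KO LCA replicate 1 and 41 without KO LCA replicate 2, and in KO RCA, leaving out replicate 1 or 2 left 8 or 7 opposed genes.

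**Figure D3:**
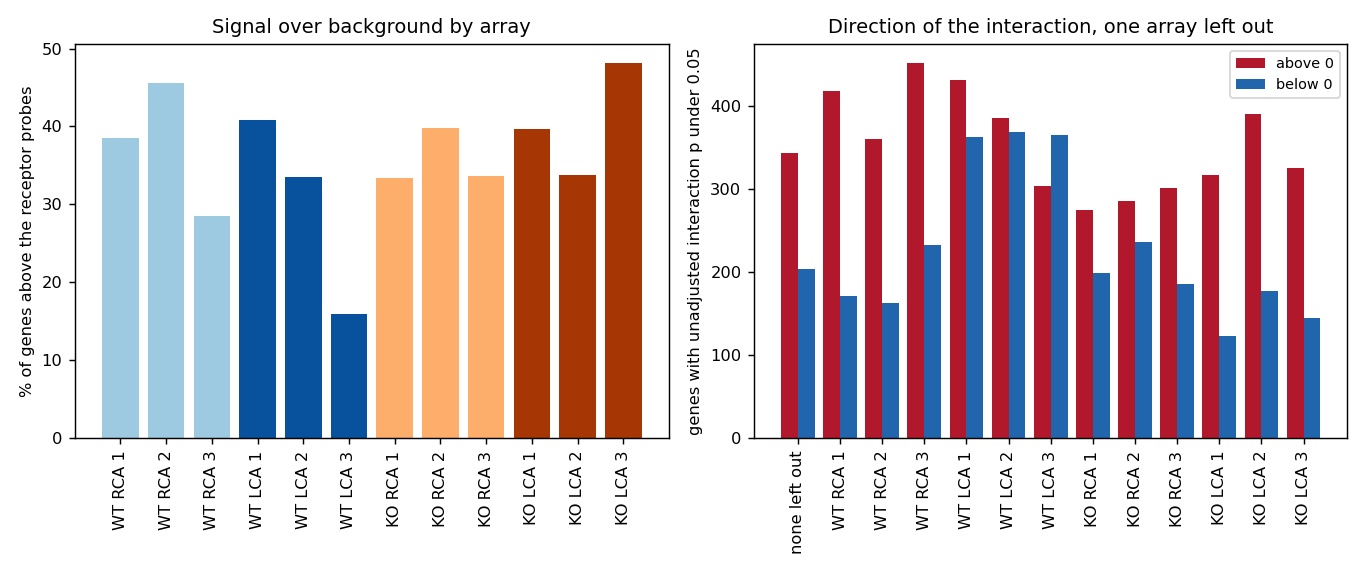
The left panel gives, for each of the 12 arrays, the percentage of genes above that array's receptor probe guide, and the right panel the number of genes with unadjusted interaction p under 0.05 above and below 0 with all arrays and with each array left out. WT LCA replicate 3 is the lowest bar on the left, and without it the genes below 0 outnumber those above 0 among all genes tested.

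The responses that both genotypes shared included endothelial genes that steady flow maintains, among them Klf2, Klf4, Klk10 and Nos3, each with lower values in the ligated artery. Of the 81 kept genes, 68 had lower (0.442%) and 13 had higher values (0.0844%) in the LCA, and in 61 of the 81 the LCA and RCA arrays did not overlap in either genotype. Among all genes, 11.2% had no overlap in WT and 19.9% in KO. The KO effect was smaller than the WT effect in 42 of the 81. Of the 81, 52 exceeded the guide on all 3 arrays of some group.

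Klf4, a shear-induced transcription factor that restrains endothelial inflammation, had intensities of 345, 481 and 588 in the untouched and 154, 125 and 185 in the ligated artery of WT, and 425, 425 and 221 in the untouched and 128, 142 and 189 in the ligated artery of KO. All 6 LCA arrays lay below all 6 RCA arrays. The ligation effect was -1.59 ± 0.29 (SE) on the log2 scale in WT and -1.18 ± 0.29 in KO, and the 95% interval of the interaction was -0.52 to 1.34. One other probe for Klf4 gave effects of -0.84 and -0.62 and another -1.42 and -0.07, so the probes disagree on the size in KO. Klf2, its partner in the flow response, was named after its values were seen, and had 106, 95.9 and 109 in WT LCA beside 180.0, 203 and 185 in WT RCA, and 106, 117 and 121 in KO LCA beside 192, 161 and 271 in KO RCA. Its highest LCA array again lay below its lowest RCA array. The effects were -0.87 ± 0.16 in WT and -0.83 ± 0.16 in KO, which differed by 0.04 ± 0.22 with a 95% interval of -0.46 to 0.55. In WT LCA, Klf2 exceeded the background guide on 1 of 3 arrays, so the size of the WT effect is limited by the floor of the array.

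Klk10, a secreted kallikrein-related peptidase known to be high under steady flow, had the largest WT effect of the named kept genes. Its intensities were 977, 472 and 499 in WT RCA against 147, 122 and 160.2 in WT LCA, and 256, 372 and 134 in KO RCA against 109, 96.2 and 128 in KO LCA. The KO arrays of the untouched RCA lay below those of WT, and the KO LCA arrays still lay below all KO RCA arrays. In KO LCA, Klk10 exceeded the background guide on 2 of 3 arrays, so the size of the KO effect is limited by the floor of the array. The effect was -2.11 ± 0.37 in WT and -1.08 ± 0.37 in KO, with an interaction of 1.03 ± 0.52, a limma p of 0.0791 and a 95% interval of -0.14 to 2.20, and the interaction was 0.63 without KO RCA replicate 3. Nos3, also named after its values were seen, had effects of -0.69 ± 0.25 in WT and -0.58 ± 0.25 in KO, with a 95% interval of the interaction from -0.69 to 0.91.

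The promoters of Klf2 and Klk10 are shown because the steady-flow programme is known to act through MEF2 transcription factors, and both hold a match to the MEF2 motif. The 9 kept genes looked up in the RefSeq promoter sequences (build GRCm38.p6) were the 8 picked by rule and Klf2, added after its values were seen. Of the 9, 5 had an entry and 2 had a match, 1 of them the added Klf2. Across all 32851 promoters of the same length, 1047 (3.19%) held one on either strand. That share is per promoter entry, while Lmo4 and Egfl7 had 3 entries each, so it cannot be set against the count of genes. The sequences run from 250 bases before the transcription start to 50 bases after it, with the match in capitals.
Klf2 promoter, chr8:72318812-72319111 on the plus strand: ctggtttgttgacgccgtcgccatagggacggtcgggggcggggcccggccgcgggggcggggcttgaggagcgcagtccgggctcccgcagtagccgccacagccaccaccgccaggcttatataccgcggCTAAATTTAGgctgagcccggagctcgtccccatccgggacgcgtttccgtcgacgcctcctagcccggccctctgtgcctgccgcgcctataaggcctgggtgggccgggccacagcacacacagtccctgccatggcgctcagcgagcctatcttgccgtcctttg
Klk10 promoter, chr7:43780804-43781103 on the plus strand: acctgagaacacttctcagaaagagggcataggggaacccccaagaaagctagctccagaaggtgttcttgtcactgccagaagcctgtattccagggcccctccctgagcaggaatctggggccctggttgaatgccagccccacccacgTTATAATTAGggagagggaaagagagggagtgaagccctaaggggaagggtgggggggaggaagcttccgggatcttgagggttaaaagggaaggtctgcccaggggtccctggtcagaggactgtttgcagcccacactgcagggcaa
The match lies at positions -118 to -109 from the start in Klf2 and -99 to -90 in Klk10, and the matched letters differ at 3 of their positions. These matches are descriptions of the sequence and not evidence of a bound factor in these arteries.

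The receptor for adrenomedullin, a peptide that keeps endothelial barriers tight, is built from Calcrl and its partner Ramp2, and both were kept with lower LCA values. Ramp2 had 1501, 612 and 398 in the untouched and 262, 166 and 340.3 in the ligated artery of WT, and 394, 509 and 381 in the untouched and 215, 202 and 229.7 in the ligated artery of KO. Its LCA arrays lay below its RCA arrays in each genotype, with effects of -1.54 ± 0.42 in WT and -0.98 ± 0.42 in KO, and the interaction of 0.56 was 0.03 without WT RCA replicate 1. Calcrl, named after its values were seen, had smaller effects of -0.36 ± 0.11 and -0.28 ± 0.11. Acvrl1, an endothelial receptor for BMP ligands that was likewise named after its values were seen, had -0.47 ± 0.17 and -0.49 ± 0.17. Egfl7, a protein secreted by endothelial cells, had effects of -1.01 ± 0.42 in WT and -1.0 ± 0.42 in KO, with a wide interval for the interaction, -1.32 to 1.33. Its KO RCA arrays read 592, 1957 and 596, and without replicate 2 of them the KO effect was -0.43 and the interaction 0.58, against 0.01 with all arrays. Other Egfl7 probes gave -0.88 and -0.83 in WT and KO, and 0.11 and 0.10, so 1 of the 3 probes had higher LCA values. The guidance cue Sema3f had effects of -1.81 ± 0.47 and -1.13 ± 0.47, and the keratin Krt80 had -1.57 ± 0.40 and -0.91 ± 0.40, or -0.43 in KO without KO RCA replicate 2. The other Sema3f probes gave -2.01 in WT and -1.19 in KO, and -0.47 and -0.23. Those of Krt80 gave -0.92 and -0.31, and 0.01 and 0.06 on a probe averaging 98.3, near the background guide.

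Kept responses with higher LCA values were fewer, and Ccn2 and Lmo4 led them. Ccn2, a matricellular protein and target of YAP and TGF-beta, had intensities of 658, 1109 and 602 in WT LCA beside 193, 328 and 160.1 in WT RCA, and 2083, 2083 and 1419 in KO LCA beside 756, 797 and 943 in KO RCA. The KO RCA arrays already lay above 2 of the 3 WT LCA arrays, and the KO LCA arrays lay higher still. The effect was 1.81 ± 0.30 in WT and 1.15 ± 0.30 in KO, and a second Ccn2 probe gave 1.76 and 1.02. Lmo4, a LIM domain adaptor of transcription complexes, had 162, 172 and 111 in WT RCA against 226, 419 and 367 in WT LCA, and 266, 245 and 333 in KO RCA against 1425, 534 and 779 in KO LCA. The LCA arrays lay above the RCA arrays of the same genotype, with effects of 1.16 ± 0.35 and 1.59 ± 0.35, although a second probe gave 0.16 and 0.26. Nfkbia, which encodes the inhibitor of NF-kappaB and is itself a target of it, was named after its values were seen and had 0.47 ± 0.19 and 0.43 ± 0.19.

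Among the lost responses, 152 genes had lower values in WT LCA and 75 had higher values, and 190 of the 227 exceeded the background guide in some group. Of the 152, WT LCA replicate 3 was the lowest of all 12 arrays in 105, and 97 kept an unadjusted interaction p under 0.05 without it, as did 57 of the 75.

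The clearest lost response with higher WT values was that of Sardh, the mitochondrial sarcosine dehydrogenase. Its intensities were 108, 109 and 122 in the untouched and 292, 269 and 196 in the ligated artery of WT, and 112, 101 and 114 in the untouched and 111, 135 and 117 in the ligated artery of KO. The 3 WT LCA arrays stood above all other 9 arrays, and KO LCA overlapped KO RCA. The WT effect was 1.15 ± 0.14, the KO effect 0.15 ± 0.14 and the interaction -0.99 ± 0.20 (limma p 0.000589, adjusted p 0.905), and without WT LCA replicate 3 it was -1.17. Icam1, the endothelial adhesion molecule that captures leukocytes, had 403, 315 and 535 in WT LCA beside 276, 250 and 286 in WT RCA, and 665, 608 and 452 in KO LCA beside 675, 702 and 843 in KO RCA. In WT the LCA arrays lay above the RCA arrays. In KO the untouched RCA was already above every WT array, and the LCA arrays lay below all KO RCA arrays. The effects were 0.59 ± 0.20 in WT and -0.38 ± 0.20 in KO, and the interaction was -0.97 ± 0.28 (limma p 0.0063), or -0.77 without WT LCA replicate 3.

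Other lost genes with higher WT LCA values had second probes that often differed. The peroxide-degrading enzyme catalase (Cat) had 141, 229 and 200.1 in WT RCA against 282, 442 and 296 in WT LCA, and 157, 435 and 199.9 in KO RCA against 142, 185 and 159 in KO LCA. Its WT LCA arrays lay above its WT RCA arrays, while KO RCA replicate 2 stood far above the other KO arrays, and the interaction was -1.41 ± 0.50, with -0.37 on a second probe. Hspa2, a chaperone of the Hsp70 family, had an interaction of -0.62 ± 0.24, but a second probe gave 0.18 with the opposite sign. Manf, a secreted protein of the endoplasmic reticulum stress response, had -0.76 ± 0.23, and Anapc4, a subunit of the anaphase-promoting complex, had -1.08 ± 0.30. Rab1a, a GTPase of transport from the endoplasmic reticulum to the Golgi, had -0.89 ± 0.27 on a probe averaging 189 over the arrays. Its second probe gave 0.30 but averaged 98.4, near the background guide, so it says little on direction. The same holds for Wdr7, with -1.56 ± 0.47 on a probe averaging 179 and 0.09 on the other, which averaged 100. Pphln1, with -0.35 ± 0.11, had other probes on both sides of 0, and Tbc1d8 had -0.58 ± 0.18.

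Lost genes with lower WT LCA values included flow and adhesion genes. Slco2a1, a prostaglandin transporter of endothelium, had 413, 238 and 427 in the untouched and 154, 155 and 208 in the ligated artery of WT, and 136, 140.3 and 126 in the untouched and 111, 118 and 114 in the ligated artery of KO. The KO arrays of both arteries lay below every WT array, so the KO RCA stood below even the ligated WT artery. Its effects were -1.03 ± 0.21 in WT and -0.23 ± 0.21 in KO, with an interaction of 0.79 ± 0.29 (limma p 0.0218). Its other probes gave 0.69 and 1.11. The background guides of the KO RCA arrays were 102.8, 99.3 and 102.6, so the floor of the array limits how large a KO fall could be recorded. Itga9, the integrin alpha 9 subunit, had 259.5, 412 and 458 in WT LCA beside 1152, 676 and 774 in WT RCA, and 496, 589 and 515 in KO LCA beside 548, 520.1 and 534 in KO RCA. The KO arrays of both arteries sat between 496 and 589, above WT LCA and below WT RCA. The interaction was 1.20 ± 0.32 (limma p 0.00428) and 1.36 without WT LCA replicate 3, but a second Itga9 probe gave -0.19.

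Itga5, the alpha subunit of the fibronectin receptor, had 218, 121 and 133 in WT RCA against 105, 109 and 92.5 in WT LCA, and 125, 134 and 133 in KO RCA against 170.0, 164 and 149.7 in KO LCA. KO LCA lay above KO RCA, and WT LCA below WT RCA, with an interaction of 0.88 ± 0.26 that a second probe gave as 0.76. Ilk, the integrin-linked kinase, had an interaction of 1.36 ± 0.51 and Srf, the transcription factor that drives cytoskeletal genes, had 1.57 ± 0.57, each with WT LCA replicate 3 as its lowest array. Without that array they were 1.14 and 1.26, and the second probes gave 0.34 for Ilk and 0.00 for Srf. Dusp1, a phosphatase that switches off MAP kinases, had 1286, 513 and 359.6 in the untouched and 224, 244 and 276 in the ligated artery of WT, and 472, 464 and 379 in the untouched and 542, 505 and 447 in the ligated artery of KO. Its WT RCA replicate 1 stood well above the other WT RCA arrays, and the KO arteries did not separate, with an interaction of 1.51 ± 0.52, or 0.98 without that array. Pak4, a kinase of cytoskeletal signalling, had effects of -0.72 ± 0.10 and 0.04 ± 0.10 and an interaction of 0.76 ± 0.14 (limma p 0.000399). Its mean intensity was 104 in KO RCA and 107 in KO LCA, each above the guide on 2 of 3 arrays. With KO RCA near background, a fall in KO had little room to show.

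For the lost genes with the largest WT effects, other probes of the same gene often disagreed. Cdkn1b, the cell cycle inhibitor p27, had 202, 160.3 and 94.0 in WT LCA beside 672, 622 and 237 in WT RCA, and 187, 183 and 147 in KO LCA beside 170.2, 215 and 147 in KO RCA, and its WT effect of -1.68 ± 0.40 came with other probes that gave interactions of -0.10 and -0.03 against 1.64 here. Those other Cdkn1b probes averaged 90.1 and 105, near the background guide, against 253 for the one used. Rab23 (interaction 2.09 ± 0.91), a regulator of hedgehog signalling, and Ywhaz (2.97 ± 0.96), a 14-3-3 adaptor protein, likewise had other probes below 0. Those of Rab23 averaged 93.7 and 101, also near the guide, and that of Ywhaz 555. Max, the partner of Myc, had 2.05 ± 0.59. Csrp2, a LIM protein of smooth muscle, had 2.38 ± 0.79 and its WT RCA arrays ranged from 263 to 1513. Serpina1b, an alpha-1 antitrypsin, had 1.26 ± 0.43 with other probes at 0.54 and 0.88, and 0.83 without WT RCA replicate 1. Tmem88, an inhibitor of Wnt signalling, had 2.25 ± 0.70 with 0.56 on a second probe, and the kinase Aatk had 1.32 ± 0.51.

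Opposed responses were rare, 15 of 15395 genes, and 14 of them ran lower in WT LCA and higher in KO LCA. WT LCA replicate 3 was the lowest of the 12 arrays in 11 of the 15, and all 15 kept an unadjusted interaction p under 0.05 without it. Dbi, the acyl-CoA binding protein, had 742, 611 and 1387 in WT RCA against 310.4, 346 and 452 in WT LCA, and 430.3, 317 and 466 in KO RCA against 753, 560.1 and 970.4 in KO LCA. WT LCA lay below every WT RCA array and KO LCA above every KO RCA array, with effects of -1.23 ± 0.31 and 0.90 ± 0.31. The interaction of 2.13 ± 0.44 was 2.28 without WT LCA replicate 3, while other Dbi probes gave 0.07 and 0.80. Schip1, a partner of the cytoskeletal protein schwannomin, had 203, 218 and 182 in the untouched and 148, 156 and 116 in the ligated artery of WT, and 294, 278 and 319 in the untouched and 341, 387 and 349.5 in the ligated artery of KO. All KO arrays lay above all WT arrays, and within each genotype the arteries separated in opposite directions, for an interaction of 0.81 ± 0.17 (limma p 0.000775) that a second probe gave as 0.07.

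Col1a2, the alpha 2 chain of type I collagen, was the matrix gene of the opposed class. It had 121, 123 and 94.3 in WT LCA beside 131, 166 and 148 in WT RCA, and 136, 197 and 130.3 in KO LCA beside 106, 119 and 97.1 in KO RCA. WT LCA lay below WT RCA and KO LCA above KO RCA, with effects of -0.40 ± 0.17 and 0.51 ± 0.17, and the interaction was 0.90 ± 0.24 (limma p 0.00446), or 0.78 without WT LCA replicate 3. Ei24, a membrane protein induced by p53, had 213, 209 and 267 in WT RCA against 163, 172 and 133 in WT LCA, and 185, 173 and 180.3 in KO RCA against 265, 225 and 208 in KO LCA. Its pattern was the same, with an interaction of 0.93 ± 0.18 (limma p 0.000583) that a second probe gave as 0.46. Set, an inhibitor of the phosphatase PP2A, had 0.96 ± 0.22 with 0.09 on a second probe. Llgl1, a cell polarity protein, had 1.31 ± 0.35 with 0.39 on a second probe, and Endod1 had 1.39 ± 0.41. For Vps53, part of an endosome tethering complex, and Foxj3, a forkhead factor, interactions of 0.92 ± 0.18 and 0.62 ± 0.13 came with other probes near 0, between 0.07 and 0.20 and between -0.02 and 0.23. Impdh1, an enzyme of guanine nucleotide synthesis, had 0.32 ± 0.07, with 0.04 and 0.17 on other probes. It exceeded the guide on 0 of 3 arrays in WT LCA and 1 of 3 in KO RCA, so its opposed response lay near background.

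Gained responses were more often higher than lower in KO LCA, with 112 and 79 genes, and 102 of the 191 exceeded the background guide in some group. The smallest interaction p of all genes belonged to Cd163, the macrophage receptor that clears haemoglobin, with 97.2, 103 and 83.4 in the untouched and 97.5, 86.6 and 81.7 in the ligated artery of WT, and 79.7, 94.8 and 91.0 in the untouched and 139, 141 and 165 in the ligated artery of KO. Its 3 KO LCA arrays stood above all other 9. KO RCA was not well above background on any array, so the KO difference is at least 1.46-fold. The interaction was 0.83 ± 0.16 (limma p 0.000363, adjusted p 0.905) and 0.78 without WT LCA replicate 3. Of the 17 macrophage and monocyte markers tested, 3 exceeded the guide on all 3 arrays of a group, and their median interaction was 0.05, or -0.03 without that array.

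Fabp4 and Pck1, genes of fat cells, and Timp1 and Dpt, of the matrix, were 4 of the 8 gained genes with the largest KO effect. Fabp4, a fatty acid binding protein of adipocytes and capillary endothelium, had 160.5, 117 and 302 in WT LCA beside 146, 171 and 311 in WT RCA, and 427, 329 and 323 in KO LCA beside 207, 143 and 93.4 in KO RCA. The KO LCA arrays lay above all KO RCA arrays, while the WT arteries overlapped, and the interaction was 1.49 ± 0.58, or 1.87 without WT LCA replicate 3. Pck1, an enzyme of glyceroneogenesis in fat, had 91.9, 98.6 and 106 in WT RCA against 94.4, 90.9 and 89.6 in WT LCA, and 178, 104 and 90.5 in KO RCA against 337, 212 and 194 in KO LCA, with an interaction of 1.12 ± 0.36 and 0.82 on a second probe. Over the 15 adipocyte markers tested, the summed intensity ranged from 1532 to 1605 in WT LCA and 1827 to 2200.1 in KO LCA, and in the untouched arteries from 1560.1 to 1659.9 in WT and 1471 to 1655 in KO. Their median interaction was 0.08. Fabp4 and Pck1 are themselves among the 15, so the sum is not separate from their own values. The part of adipocyte content in both results was not tested.

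Timp1, an inhibitor of metalloproteinases, had 101, 98 and 147 in the untouched and 119, 108 and 105 in the ligated artery of WT, and 103, 112 and 110.4 in the untouched and 311, 145 and 268 in the ligated artery of KO. KO LCA replicates 1 and 3 stood well above all other arrays, and the interaction was 1.12 ± 0.36 (limma p 0.0113) with 1.18 on a second probe. Dpt, the matrix protein dermatopontin, had 98.1, 127 and 92.5 in WT LCA beside 94.6, 96.7 and 94.3 in WT RCA, and 221, 165 and 322 in KO LCA beside 87.9, 150.3 and 97.2 in KO RCA. Only KO LCA exceeded the guide on all 3 arrays, and the interaction was 0.93 ± 0.36, or 0.84 without WT LCA replicate 3. Gpx3, a secreted glutathione peroxidase, had 84.0, 91.2 and 107 in WT RCA against 92.7, 94.0 and 92.2 in WT LCA, and 87.0, 99.4 and 89.4 in KO RCA against 191, 125 and 135 in KO LCA. The WT arrays all lay near background, and the interaction was 0.70 ± 0.21. Mmp3, a stromal metalloproteinase, had an interaction of 0.45 ± 0.17 with only KO LCA above the guide, on 2 of 3 arrays, and other probes within 0.01 of 0. Timp4, another inhibitor of metalloproteinases, ran the other way with -0.24 ± 0.09.

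Gained responses with lower KO LCA values were led by Lims1, Hba-a1 and Rbm12b2. Lims1, the adaptor PINCH of integrin adhesions, had 138, 113 and 119 in the untouched and 117, 110.5 and 86.6 in the ligated artery of WT, and 381, 168 and 175 in the untouched and 91.0, 90.1 and 116 in the ligated artery of KO. KO RCA replicate 1 stood apart from the other arrays, and the interaction of -0.94 ± 0.40 was -0.56 without it and -0.51 on a second probe. Hba-a1, an alpha globin of red cells, had 563, 359 and 526 in WT LCA beside 185, 636 and 365 in WT RCA, and 535, 794 and 636 in KO LCA beside 1362, 1244 and 1830.1 in KO RCA. The KO RCA arrays lay above all others, and the interaction was -1.61 ± 0.55. The 10 red cell and platelet markers tested include Hba-a1, so their sum is not separate from its own values. Their summed intensity ranged from 1659 to 3682 in WT RCA and 3241 to 11250.4 in KO RCA. In the ligated arteries it ranged from 2799 to 4431 in WT and 2893 to 5688 in KO. The part of blood content was not tested. Rbm12b2, an RNA-binding protein, had -1.28 ± 0.55, and Trmt61a, a tRNA methyltransferase with higher KO LCA values, had 1.10 ± 0.47.

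**Figure D4:**
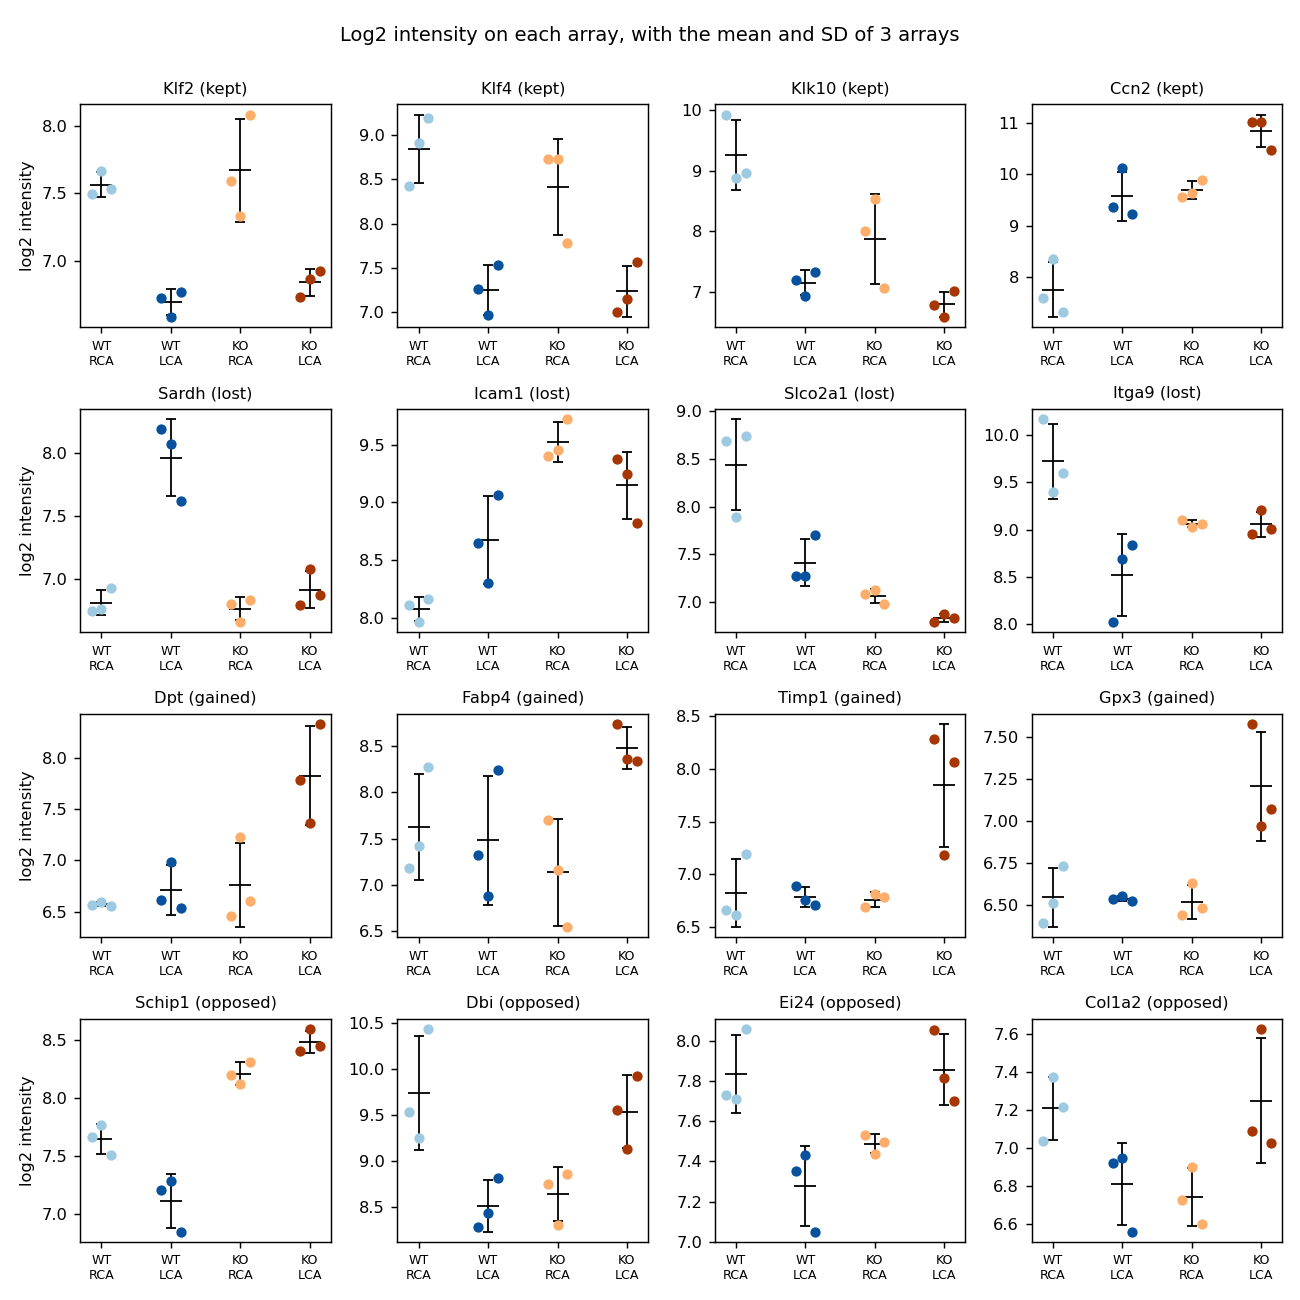
Log2 intensity on each of the 12 arrays (points) with the mean and SD of the 3 arrays of a group (bars), for 4 genes of each class, one class per row, with a vertical scale of its own in each panel. The kept genes step the same way in both genotypes, whereas Sardh separates only the WT arteries, Timp1 only the KO arteries, and Schip1 both in opposite directions.

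The flow programmes of the endothelium, read as lists, had medians of the same sign in both genotypes. To compare with the direction counts of the lists, 3770 of the 6371 genes above background were lower and 2601 higher in WT LCA. In KO LCA, 3147 were lower and 3224 higher. Of 19 genes that laminar flow induces, 15 had lower values in WT LCA and 14 in KO LCA, with medians of -0.18 and -0.23. Unadjusted p was under 0.05 for 8 lower and 0 higher genes in WT, where all genes gave 4.46% lower and 2.47% higher, and for 6 lower and 1 higher in KO, where all genes gave 4.09% lower and 2.83% higher. The 4 kept members were Klf2, Klf4, Klk10 and Nos3, Slco2a1 was lost and Timp4 gained. The interaction lay above 0 for 14 of the 19, beside 47.2% of all genes and 57.8% of those above background, which 15 of the 19 were. Its median was 0.14, beside -0.01 over all genes and 0.06 over those above background. Thrombomodulin (Thbd), which restrains clotting, had effects of -1.20 and -0.45 with an interaction of 0.75 ± 0.63, and the connexin Gja5 had -0.28 and -0.90 with -0.63 ± 0.49.

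Of 26 genes that disturbed flow induces, 18 had higher values in WT LCA and 15 in KO LCA, with medians of 0.12 and 0.10, and the median interaction was -0.05. Ccn2 and Lmo4 were kept and Icam1 was lost. The vasoconstrictor endothelin (Edn1) had effects of 0.95 and 0.72 with an interaction of -0.23 ± 0.58, and the adhesion molecule Vcam1 had 0.30 and 0.43 with 0.13 ± 0.47. For the selectins, which let leukocytes roll, the interaction was -0.34 ± 0.38 in Selp and -0.62 ± 0.49 in Sele. Esm1, a secreted proteoglycan of activated endothelium, had 291, 131 and 151 in KO LCA against 97.8, 101 and 117 in KO RCA and all WT arrays between 83.6 and 92.7, and its interaction was 0.74 ± 0.34 (limma p 0.0535). Without KO LCA replicate 1 it was 0.40. Sox13, a further member, had 0.40 ± 0.19, or 0.26 without the same array.

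The endothelial markers themselves had lower medians in the ligated artery, which stands beside every endothelial gene above. Their median was -0.32 in WT and -0.16 in KO, with 13 and 15 of 20 lower in the LCA. Their summed intensity was 6391 to 6883 in WT RCA against 4748 to 5549 in WT LCA, and 5627 to 6659 in KO RCA against 4661 to 7218 in KO LCA. Their median interaction was 0.14, and 0.02 without WT LCA replicate 3. The part of endothelial cell content in the flow responses was not tested. Pecam1 and Cdh5, which define endothelium, exceeded the guide on all arrays of WT RCA, as did the smooth muscle marker Acta2, whereas Cnn1 and Tagln, other smooth muscle markers, exceeded it on none of them.

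Elastic fibre genes, the assembly partners of fibulin-5, had a median of -0.16 in WT and 0.05 in KO. In WT LCA 15 of 19 were lower, beside 3770 of the 6371 genes above background. In KO LCA 12 of 19 were higher, beside 3224 of the 6371. The median interaction of the elastic fibre genes was 0.14 (0.11 without WT LCA replicate 3). Of the 19, 2 had an unadjusted p under 0.05 above 0, Fbln1 and Mfap4, beside 2.23% of all genes. Fbln1, another fibulin, had 114, 140.4 and 104 in WT RCA against 105, 125 and 91.0 in WT LCA, and 133, 136 and 108 in KO RCA against 164, 183 and 320.0 in KO LCA. Its KO LCA arrays lay above all other arrays, its interaction was 0.93 ± 0.34 (limma p 0.0207), and its other probes gave 0.08 and 0.25. Mfap4, a microfibril-associated protein, had 86.2, 97.5 and 89.1 in the untouched and 92.2, 92.4 and 86.3 in the ligated artery of WT, and 96.3, 94.9 and 102 in the untouched and 127, 114 and 113 in the ligated artery of KO. WT LCA and KO RCA were not well above background, so the KO difference is at least 1.16-fold, and the interaction was 0.28 ± 0.10. Elastin (Eln) had effects of -0.79 and -1.34 with an interaction of -0.55 ± 0.99, the crosslinking enzyme Lox had -0.40 and 0.60 with 1.00 ± 0.54, and Mfap5 had -0.60 and -0.12 with 0.49 ± 0.25.

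Collagens and other interstitial matrix genes had medians of 0.06 in WT and 0.14 in KO and a median interaction of 0.06 over 19 genes. Col1a1, the partner chain of Col1a2 in type I collagen, had 98.8, 99.3 and 106 in WT LCA beside 106, 135 and 102 in WT RCA, and 118, 126 and 167 in KO LCA beside 109, 105 and 113 in KO RCA. Its KO LCA arrays lay above its KO RCA arrays and the WT arteries overlapped, for an interaction of 0.47 ± 0.19 (limma p 0.0355). Fmod, a collagen-binding proteoglycan, had 0.24 ± 0.17. Genes that respond to TGF-beta, a growth factor stored in the matrix, had medians of 0.08 and 0.12 and a median interaction of 0.02 over 23 genes. Among them Pmepa1, an inhibitor of TGF-beta signalling, had 0.39 ± 0.12 (limma p 0.00823) with 0.11 on a second probe. The ligand Tgfb2 had 0.68 ± 0.35, or 0.39 without WT RCA replicate 2, and the ligand Bmp6 had -0.99 ± 0.48, or -0.60 without KO RCA replicate 2. The 17 basement membrane genes had a median interaction of 0.19 (0.12 without WT LCA replicate 3) and the 19 metalloproteinases and inhibitors of 0.06 (0.03), with 0 genes and 3 genes at an unadjusted p under 0.05, beside 3.55% of all genes.

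The list that stood farthest from 0 was that of adventitial fibroblast markers. Of 16 tested, 11 had lower values in WT LCA and 12 had higher values in KO LCA, with medians of -0.16 and 0.27. The interaction lay above 0 for 14 of the 16, beside 47.2% of all genes and 57.8% of those above background. Its median was 0.70, or 0.56 without WT LCA replicate 3. Unadjusted p was under 0.05 for 5 genes above 0 and 0 below, of which 3 remained so without that array, beside 2.23% above 0 over all genes. The 5 were Col1a1, Col1a2, Fbln1, Dpt and Cygb, several of which stand in the matrix lists too. Their summed intensity ranged from 2767 to 3602 in WT RCA against 2098 to 2507 in WT LCA, and from 2402 to 2695 in KO RCA against 2495 to 3291 in KO LCA, so KO LCA overlapped WT RCA. How much of the interaction in matrix genes goes with fibroblast content was not tested. Cygb, a globin of fibroblasts, had 0.66 ± 0.25, Dcn, the proteoglycan decorin, had 0.58 in WT and 1.35 in KO with 0.78 ± 0.61, and Serpinf1, a secreted serpin, had -0.77 and 0.74 with 1.52 ± 0.76.

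Smooth muscle markers had 19 of 22 interactions above 0, beside 47.2% of all genes and 57.8% of those above background, with medians of -0.04 in WT and 0.07 in KO and a median interaction of 0.15 (0.14 without WT LCA replicate 3). Their summed intensity was 2876 to 3375 in WT RCA against 2392 to 3037 in WT LCA, and 3606 to 4104 in KO RCA against 4501 to 6191 in KO LCA. Tpm1, a tropomyosin of the contractile apparatus, had 208, 261 and 252 in WT RCA against 223, 227 and 138 in WT LCA, and 374, 539 and 510.5 in KO RCA against 573, 768 and 989 in KO LCA. All KO arrays lay above all WT arrays, and KO LCA above KO RCA, for an interaction of 1.01 ± 0.35 (limma p 0.0166) with other probes at -0.26 and 1.02. Sgcd, a sarcoglycan of the muscle membrane, had 0.60 ± 0.19 (limma p 0.00935) through lower WT LCA values, and 0.20 on a second probe. Smooth muscle actin (Acta2) had effects of 0.02 and 0.49 with an interaction of 0.47 ± 0.25, and the myosin light chain Myl9 had 1.16 ± 0.56, or 0.70 without KO LCA replicate 3. Among the 22 YAP and SRF target genes the median interaction was 0.11, and Tpm4, another tropomyosin, had 1.31 ± 0.51 but 1.00 without WT LCA replicate 3 and probes of both signs.

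Among metabolic and stress genes, the lists with the highest median interactions were those of glycolysis and hypoxia, ribosomal proteins and chaperones. The median interaction over the 6371 genes above background was 0.06, and 0.03 without WT LCA replicate 3. Glycolysis and hypoxia genes had a median of 0.21 (0.32 without it), with Gapdh at 0.69 ± 0.23, Aldoa at 0.91 ± 0.36 and Pfkp at 0.46 ± 0.14, all enzymes of sugar breakdown. Other Pfkp probes gave 0.04 and 0.22. Heat shock and chaperone genes had 0.19 (0.11 without it). Hspa5, the main chaperone of the endoplasmic reticulum, had 0.97 ± 0.41, or 0.63 without WT RCA replicate 1. The small heat shock protein Hspb8 had 1.80 ± 0.69, or 1.13 without WT RCA replicate 3, and -0.13 on a second probe. Ribosomal protein genes also had a median of 0.19 (0.14 without WT LCA replicate 3), and 0 of 25 had an unadjusted p under 0.05. Integrin and focal adhesion genes had 0.13 (0.04 without it), with 4 of 23 genes above 0 and 1 below at that p, beside 2.23% above and 1.32% below over all genes, and with 2 above and 1 below without that array. Antioxidant genes had 0.10 (0.22 without it), and Hmox1, a haem-degrading enzyme that the laminar flow list holds, had 0.24 ± 0.12. Oxidative phosphorylation genes had 0.02, which turned to -0.07 without it, and their smallest p belonged to the cytochrome oxidase subunit Cox4i1 at 1.18 ± 0.47.

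The lists not yet described had medians between -0.11 and 0.09. Immediate early genes had a median interaction of -0.04, which turned to 0.05 without WT LCA replicate 3. Chemokine and cytokine genes had -0.04 (-0.01 without it), cell cycle genes -0.02 (-0.05) and interferon stimulated genes -0.01 (-0.02). Clock genes had 0.05 (0.07) and arterial Notch and ephrin genes 0.03 (0.08). Ccl5, a chemokine for lymphocytes, had -0.22 ± 0.09 with all arrays near background. Among cell cycle genes, Cdc20, an activator of the anaphase-promoting complex, had 0.46 ± 0.20, with 0.20 on a second probe. The ribonucleotide reductase subunit Rrm2 had -0.17 ± 0.07 on a probe averaging 93.7, near background. Neutrophil markers had a median of -0.11, with 11 of 13 below 0 and 2 above, beside 47.2% of all genes above 0. Only 3 of the 13 exceeded the guide on all 3 arrays of a group. Lymphocyte markers had -0.01 (-0.04 without WT LCA replicate 3). Nerve and Schwann cell markers had 0.09, and 3 of the 7 tested had an unadjusted p under 0.05, 2 above 0 and 1 below, beside 3.55% of all genes, while 2 of the 7 exceeded the guide on all 3 arrays of a group. Mag, a myelin adhesion protein, had -0.20 ± 0.06 on a probe averaging 95.5, near background, with -0.04 on a second probe. Pmp22, a myelin membrane protein, had 0.43 ± 0.17, with 0.04 on a second probe. Ncam1, a neural adhesion molecule, had 0.61 ± 0.24, or 0.37 without WT RCA replicate 3, and its other probes gave -0.08 and -0.05. All its probes averaged between 107 and 111, near the guide, so its direction is not settled. The adipocyte hormone resistin (Retn) had -0.28 ± 0.09 at background levels. Markers of skeletal muscle and of thyroid and parathyroid (median -0.05 for each, and -0.01 without WT LCA replicate 3) exceeded the guide on all 3 arrays of a group for 0 genes.

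**Figure D5:**
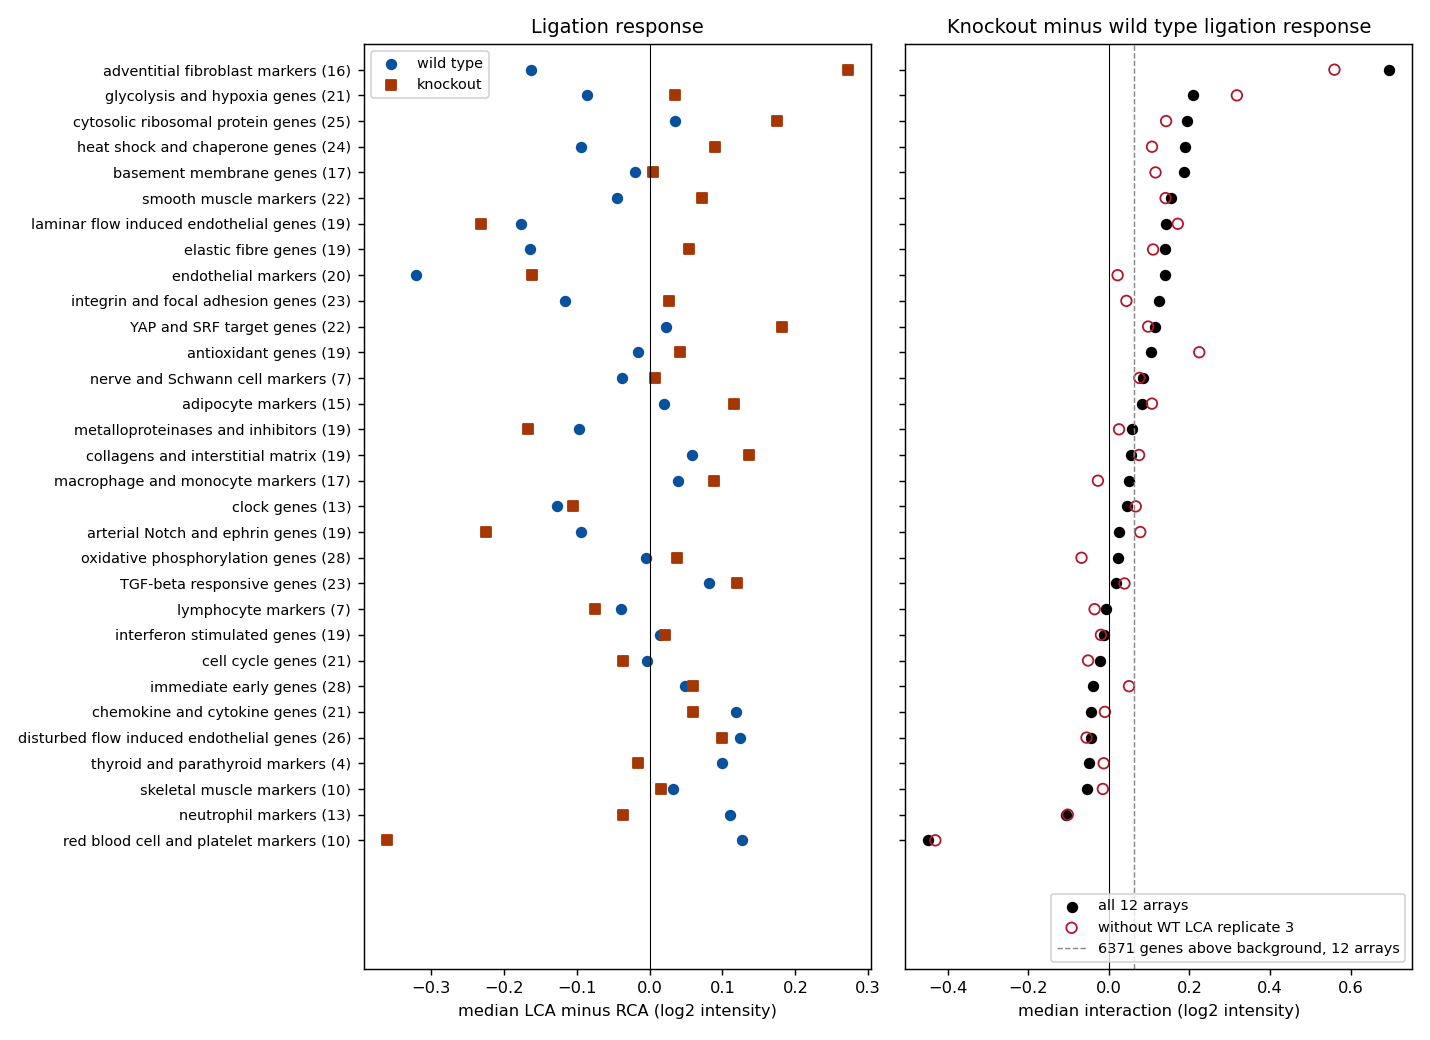
Median log2 values of each gene list, with the number of genes tested in parentheses: ligation effects in WT and KO on the left, and the interaction on the right with all 12 arrays (filled) and without WT LCA replicate 3 (open), the dashed line being the median of all genes above background. Adventitial fibroblast markers lie at 0.70 and 0.56, and red blood cell and platelet markers at -0.45 and -0.43.

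As a further description of the same arrays, the 9 KO differences between an LCA and an RCA array were set against the 9 WT ones. In 341 genes (2.22%) all 9 of one genotype lay beyond all 9 of the other, 179 (1.16%) with KO above WT and 162 (1.05%) below. Itga9, Dusp1, Timp1, Dbi and Schip1 were separated in this way with KO above, and Sardh and Icam1 with KO below, whereas Slco2a1, Fabp4 and Hba-a1 were not. These genes had been named from the same arrays, so their separation adds no independent evidence.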

How the data were processed

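Carotid artery RNA was measured on 12 one-colour Illumina arrays, 4 groups of 3. The deposited values are probe intensity on a linear scale for 45281 probes. The lowest and highest values were 72.4 and 10230.4 on every array, and the sorted values were alike between arrays, as quantile normalization leaves them. How the authors scanned, corrected and normalized the arrays, and on which slides, is not given in the sources used here, and no slide block was fitted.

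The platform annotation gave 34885 probes 1 gene symbol, 18 several and 10378 none. Symbols were updated through RefSeq gene identifiers (GRCm38.p6), which matched 34807 probes. A probe was kept where 3 or more arrays put it at or above their own median (32606 probes), and the kept probe with the highest mean stood for its gene (15395 genes). Other probes quoted in the report are the gene's further kept probes. Values were log2 of intensity with a floor of 1. One limma fit (version 3.58.1, R 4.3.3) on the 4 group means, with eBayes, gave all effects, standard errors, 95% intervals and two-sided p-values, adjusted by Benjamini-Hochberg over 15395 genes with a threshold of 0.05. Gene means quoted with ± are log2 effects with their standard error unless SD is written. The background guide of an array is the 95th percentile of 1525 olfactory, vomeronasal and trace amine receptor probes. For a group above it on no array, a fold was computed against the guide and given as a lower bound. The number of arrays limits the precision.

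Named genes were Fbln5, the 8 genes above and 8 below 0 with the smallest interaction p, up to 8 of each class with the largest effects, all above the guide on all 3 arrays of a group, and up to 3 per list with the smallest p under 0.05 (always 3 for 6 lists on flow, matrix and smooth muscle). Other list members and genes were named after their values were seen. The 31 gene lists, 635 genes in all, and the genes named were chosen with earlier results of these data known. The fit was tested on simulated data in which a gene had the same spread on every array. Such data do not cover an array that stands apart, as WT LCA replicate 3 did.

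The replicate numbers were not used as a block, since the labels name no shared mouse. Alternatives covered such a block, array weights, other filters, scalings and probe rules, and each array left out.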

Additional observations from a re-analysis of the deposited data

How the results depend on the processing

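No gene passed the adjusted test for the interaction under the block, array weights, filter, scaling, centring or probe-rule alternatives, nor at an adjusted p of 0.10, nor among all 32606 kept probes with and without a symbol, an alternative chosen after seeing the data (0 passing, with 222 of the 6810 probes without 1 symbol at an unadjusted p under 0.05). Leaving out each array in turn gave 0 to 3 genes passing for the interaction, 0 to 11 for WT ligation and 0 to 6 for KO ligation, 440 to 793 genes at an unadjusted interaction p under 0.05, and 160 to 489 lost, 105 to 234 gained, 41 to 170 kept and 7 to 23 opposed genes. WT ligation had 1 gene passing with array weights, 3 with the mean of kept probes and 11 without both WT arrays numbered 3. Opposed genes numbered 24 with array weights, 8 with a trended and robust eBayes and 33 without both WT arrays numbered 3. Among genes above background only, which tests fewer genes, there were 266 genes at an unadjusted interaction p under 0.05, 65 gained, 30 kept and 7 opposed, and with no filter on dim probes, which tests more, 295 gained. Genes above and below 0 at that p numbered 367 and 402 with array weights and 269 and 263 with the trended and robust eBayes, and 219 and 47 among genes above background only, against 343 and 203 with all arrays alike, and the cause was not tested. Of 84 named genes, 68 had an unadjusted interaction p under 0.05, and 0 of these changed sign under the alternatives. Of the other 16, Egfl7 did, from 0.01 to between -0.28 and 0.58 with 1 array left out. The 68 were counted by their p on these same arrays, which every alternative reuses, and no alternative took a gene's other probe alone. Few changes of sign could therefore arise. Leaving out 1 array moved the interaction by over 1.5 times in 6 of the 68 and in all of the 16. Of 680 list medians under the alternatives, 67 moved by more than the spread between replicates. Signal near background limits the smaller folds.

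Arteries with the same replicate number did not deviate together by more than 0.1: the correlations were 0.04, 0.05 and 0.07 in WT, where each array correlated best with its own number, and -0.01, -0.00 and 0.04 in KO, where this did not hold. With the number as a fixed replicate block, 0 genes passed for the interaction and 24 were opposed, with 387 genes above and 183 below 0 at an unadjusted p under 0.05. As a random block, with a correlation of 0.06, 0 passed.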
